A study of Mus musculus with 6 samples.

Results

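The transcripts of 10 genes of the Notch pathway were compared between cells with and without added miR-28-3p: the receptors Notch1, Notch2 and Notch3, the ligands Jag1, Jag2 and Dll1, the sugar transferase Lfng, the target genes Hes1 and Hey1, and the DNA-binding factor Rbpj. They were chosen as a named list and matched by gene symbol in the deposited table, where all 10 of 10 were found among 21936 listed genes. Polyadenylated RNA was sequenced from PAM212, a mouse line that the labels call keratinocyte. There were 3 libraries of PAM212 cells infected with a lentivirus that carries the mouse miR-28-3p gene, and 3 libraries of PAM212 cells whose treatment label says only that they were not treated. All cells grew in DMEM with 10% fetal bovine serum. The sources used here do not say whether the control cells carried an empty lentivirus, so infection and the microRNA cannot be told apart. Nothing in the labels says that libraries of a group came from separate cultures or clones, so the p-values measure the spread between these libraries, which may be technical.

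Notch receptors are membrane proteins that are switched on by ligands of the Jagged and Delta families on neighbouring cells. Ligand binding lets ADAM proteases and then the gamma-secretase complex cut the receptor, and the freed intracellular part joins RBPJ and Mastermind proteins on DNA to switch on target genes such as those of the Hes and Hey families. In mouse epidermis the pathway is known for promoting the exit of basal keratinocytes into differentiation.

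The microRNA and the places in pathway transcripts that could pair with its seed are shown first, because the study raised the level of this microRNA. The mature sequence of mmu-miR-28a-3p, from RefSeq on GRCm38.p6 (chromosome 16, 24827908 to 24827929, plus strand), has its seed, bases 2 to 8, in capitals.
mmu-miR-28a-3p: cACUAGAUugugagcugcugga
The 7 letters that pair with this seed, ATCTAGT, were searched in the longest annotated 3′ UTR of each gene (GENCODE mouse release 21, GRCm38). The site was present in 0 of the 10 Notch genes, whose 3′ UTRs ran from 368 bases in Hes1 to 3742 bases in Rbpj. It was present in 6.49% of the 11656 tested genes with a 3′ UTR. Among the other pathway genes it was found once each in Dll4, Poglut1, Maml1, Maml2 and Hes3. The pair from Dll4, a Delta-family ligand (chromosome 2, 119335552 to 119335558, plus strand), and Maml2, a Mastermind coactivator (chromosome 9, 13706991 to 13706997, plus strand), are printed with the site in capitals.
Dll4: tttattttggaATCTAGTattttgataat
Maml2: agcagactgtcATCTAGTagataaatatg
Neither transcript passed the test for a change, with log2 fold changes of -0.014 for Dll4 and -0.076 for Maml2 (edgeR adjusted p = 0.84 and 0.337). Poglut1 and Maml1 were higher with overexpression, by 0.30 and 0.48 on the log2 scale, and Hes3 had too few counts to test. Over the whole table the median log2 fold change was 0.36 in tested genes with the site and -0.05 in those without, and 27.1% and 44.9% of them were lower with overexpression. Genes with and without the site were not matched for length, and gene length moved with the change, as given below. The part of length in this difference was not tested.

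Depth was similar in the groups, with 14309898 to 16383374 counted reads per overexpression library and 14706283 to 15385151 per control library. Most genes of the table differed between the groups: 86.0% of 11809 tested genes passed the threshold, an adjusted p under 0.05 in edgeR's quasi-likelihood test, 42.1% higher and 43.9% lower with overexpression. A call on a Notch gene is therefore close to what any tested gene showed, and the size and direction of its change carry more than the call. Gene length moved with the change. The median log2 fold change went from -0.65 in the lowest decile of length to 0.57 in the highest decile, and a fit with that trend removed is given for the Notch genes and for some other pathway genes. Of the keratinocyte markers, Krt14, Cdh1, Itga6, Dsp, Pkp1 and Perp were read in every library, while Krt5, the basal keratin that pairs with Krt14, was at 0 in all 6 and Trp63, the basal lineage factor, had at most 5 counts in an overexpression library and at most 22 in a control library. Markers of other cell types were low. Their summed level was 2.24 to 3.10 CPM with overexpression and 1.71 to 2.07 CPM in controls for 6 melanocyte genes (Tyr at 0), 16.2 to 17.1 and 43.3 to 52.0 CPM for 6 fibroblast genes (Lum at 0; nearly all of it Pdgfra), 0.396 to 0.758 and 0.126 to 0.318 CPM for 5 endothelial genes (Kdr and Emcn at 0), and 4.23 to 6.01 and 17.35 to 21.02 CPM for 5 immune genes (Cd3e at 0; nearly all of it Cd68). The part of these differences in the results on Notch genes was not tested, and in bulk RNA fewer cells of a type and less RNA per cell cannot be told apart.

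All 10 Notch genes passed the filter on low counts, Notch3 and Hey1 only through the control group, so for these 2 genes passing and being lower with overexpression are not independent. With overexpression 6 rose, 3 fell and 1 did not pass the test. Those that rose were Notch1, Notch2, Jag1, Jag2, Dll1 and Rbpj, and those that fell were Notch3, Lfng and Hes1. The libraries of the groups did not overlap for 9 of the 10, where 86.0% of all tested genes did not. The size of the log2 fold change had a median of 0.92 over the 10 genes and 0.72 over all tested genes, and the median with its sign was 0.29 and -0.03. The 10 genes were longer, with a median length of 6396 bases against 4526 bases for all tested genes, and longer genes tended to be higher with overexpression. With the length trend removed 3 of the 10 were higher and 3 lower. The part of length in these medians was not tested.

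Levels between genes were compared in FPKM, which scales counted reads to gene length and library size. With overexpression the order from high to low was Hes1 (mean 19.2 FPKM), Rbpj (15.3), Notch2 (11.7), Jag1 (9.04), Dll1 (6.65), Jag2 (4.75), Lfng (3.54), Notch1 (0.95), Hey1 (0.163) and Notch3 (0.0497). In controls it was Hes1 (30.7 FPKM), Rbpj (12.8), Lfng (9.82), Notch2 (6.63), Jag2 (4.30), Jag1 (3.86), Dll1 (3.04), Notch3 (0.955), Notch1 (0.711) and Hey1 (0.325). Neighbours in these orders whose libraries overlapped were Hey1 and Notch3 with overexpression and Jag2 and Jag1 in controls. Lfng moved down and Jag1 and Dll1 moved up past Jag2, while Hes1 and Rbpj kept the top of the order in both groups. The median FPKM of tested genes was 6.97 with overexpression and 7.25 in controls, so that Notch1, Notch3 and Hey1 were among the low transcripts of these cells.

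**Figure D1:**
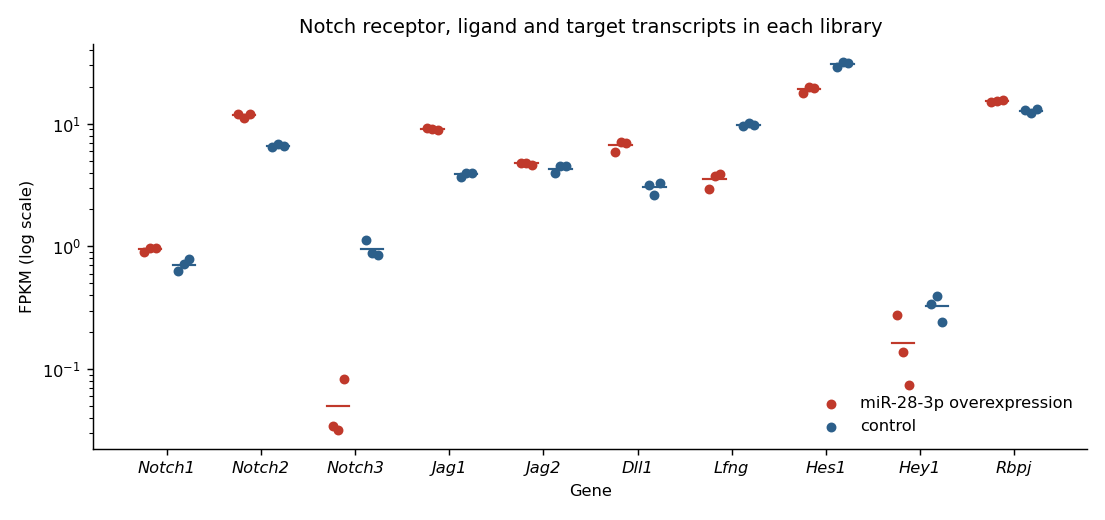
Level of each Notch gene in each library, in FPKM on a log scale. Red points are the 3 overexpression libraries, blue points the 3 control libraries and short lines the group means. Notch3 has the widest gap, with 0.0316 to 0.083 FPKM with overexpression and 0.858 to 1.12 FPKM in controls.

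Among the receptors, Notch2 rose, Notch1 rose by less and Notch3 was almost lost. Notch2 (ENSMUSG00000027878, GRCm38 chromosome 3, 98013527 to 98150361) had 12, 11.2 and 12 FPKM in the overexpression libraries, against 6.42, 6.89 and 6.57 FPKM in the control libraries. The groups did not overlap. Its log2 fold change was 0.92 ± 0.04 (SE, n = 3 against 3, edgeR adjusted p = 4.05e-28), a 1.89-fold rise. With the length trend removed it was 0.47, still called.

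Notch3 (ENSMUSG00000038146, chromosome 17, 32120820 to 32166852), the receptor best known from vascular smooth muscle, had 4, 4 and 11 counted reads in the overexpression libraries, against 140, 105 and 106 in the control libraries. Those are 0.0346, 0.0316 and 0.083 FPKM with overexpression and 1.12, 0.883 and 0.858 FPKM in controls, with no overlap. The third overexpression library stood above the other two, and all 3 stood far under the controls. The log2 fold change was -4.12 ± 0.29 (SE, n = 3 against 3, edgeR adjusted p = 3.91e-20), a 17.4-fold fall, and it was -4.72 without overexpression replicate 3. Only 218 of 11809 tested genes had a lower log2 fold change, but Notch3 was among the tested genes only through its control libraries. Among genes of its length decile 60.4% were higher and 27% lower with overexpression, and removing the length trend gave Notch3 a log2 fold change of -4.45.

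Notch1 (ENSMUSG00000026923, chromosome 2, 26457903 to 26516663), the main Notch receptor of mouse epidermal differentiation, had 0.899, 0.974 and 0.978 FPKM with overexpression, against 0.635, 0.712 and 0.787 FPKM in controls. The groups did not overlap. The change on the log2 scale was 0.51 ± 0.12 (SE, n = 3 against 3, edgeR adjusted p = 5.91e-05). Notch1 is the longest of the 10 genes at 14232 bases, and with the length trend removed its log2 fold change was -0.040 and not called (edgeR adjusted p = 0.752). The other receptor gene, Notch4, known from endothelium, had 6, 5 and 2 counted reads with overexpression and 18, 26 and 15 in controls. It fell by 2.09 on the log2 scale (edgeR adjusted p = 0.000133), at levels of at most 0.219 FPKM, and like Notch3 it passed the filter only through the control group.

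As a share of the summed FPKM of Notch1, Notch2 and Notch3, Notch2 held 92.1 ± 0.559% with overexpression and 79.9 ± 1.37% in controls (SD, n = 3 each). Notch3 held 0.387 ± 0.214% with overexpression and 11.5 ± 1.92% in controls, and Notch1 7.47 ± 0.522% and 8.57 ± 0.922%. The summed level itself was 12.7 ± 0.483 FPKM with overexpression and 8.29 ± 0.168 FPKM in controls. Transcripts of this receptor family were mostly Notch2 in both groups. The share of Notch3 was lower in every overexpression library, while the groups overlapped for the share of Notch1.

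**Figure D2:**
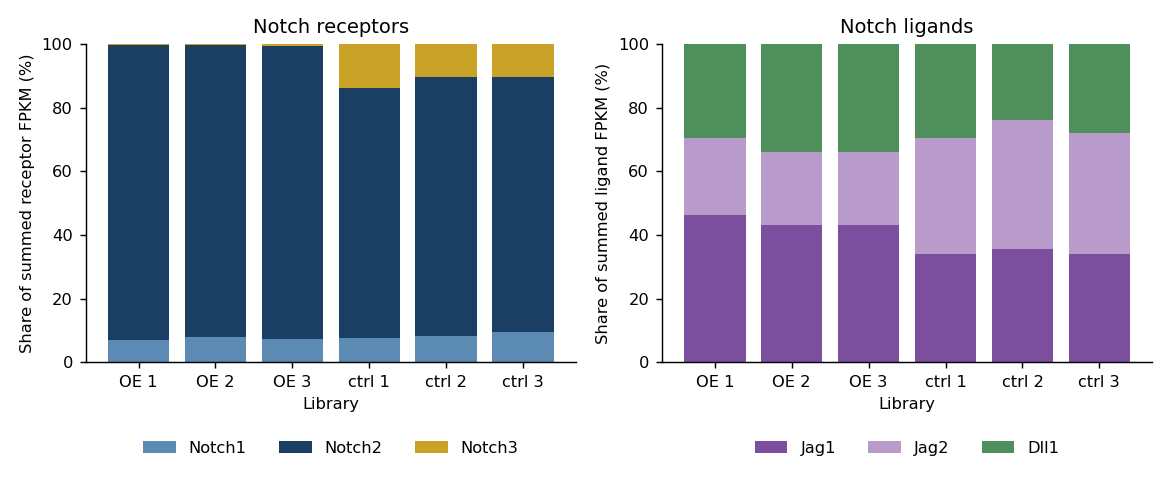
Share of each receptor in the summed FPKM of Notch1 to Notch3 (left) and of each ligand in the summed FPKM of Jag1, Jag2 and Dll1 (right), in percent. Bars are single libraries, OE for overexpression and ctrl for control. Notch3 takes 0.259 to 0.634% of the receptor bar with overexpression and 10.4 to 13.8% in controls, and Jag1 takes 43.2 to 46.3% of the ligand bar with overexpression and 33.9 to 35.5% in controls.

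Among the ligands, Jag1 and Dll1 rose more than 2-fold, Jag2 rose by 0.23 on the log2 scale and Dll4 did not pass the test. Jag1 (ENSMUSG00000027276, chromosome 2, 137081456 to 137116644) had 9.22, 9.06 and 8.83 FPKM in the overexpression libraries, against 3.68, 3.93 and 3.98 FPKM in the control libraries. All overexpression libraries lay above all controls, with little spread in either group. The log2 fold change of Jag1 was 1.32 ± 0.07 (SE, n = 3 against 3, edgeR adjusted p = 1.23e-26), the largest rise among the 10 genes. With the length trend removed it was 1.2, below the 1.29 of Dll1.

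Dll1 (ENSMUSG00000014773, chromosome 17, 15367354 to 15376872), the Delta-like ligand that marks epidermal stem cells in human skin, had 5.88, 7.12 and 6.94 FPKM with overexpression, against 3.19, 2.64 and 3.27 FPKM in controls. Its groups did not overlap either. Dll1 had a log2 fold change of 1.22 ± 0.09 (SE, n = 3 against 3, edgeR adjusted p = 3.31e-18). Dll1 is near the middle of the length range, and the value moved only to 1.29 with the length trend removed.

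Jag2 (ENSMUSG00000002799, chromosome 12, 112907819 to 112929776) had 4.82, 4.79 and 4.64 FPKM with overexpression, against 3.94, 4.49 and 4.48 FPKM in controls. The lowest overexpression library was just above the highest control. Its log2 fold change of 0.23 ± 0.07 (SE, n = 3 against 3) passed the test in edgeR (adjusted p = 0.00238). The call ended with upper quartile scaling (log2 fold change 0.0042, adjusted p = 0.957) and with the length trend removed (-0.014, adjusted p = 0.859).

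Dll4, a ligand best known from blood vessel growth, had 10.4, 10.8 and 9.70 FPKM with overexpression and 11.7, 10.8 and 10.8 FPKM in controls. Per length it was above each of Jag1, Jag2 and Dll1 in every library, and its groups overlapped (log2 fold change -0.014 ± 0.06, edgeR adjusted p = 0.84). With upper quartile scaling it was called lower (-0.24, edgeR adjusted p = 0.000423). Dlk2, a Delta-like membrane protein without the receptor-activating domain of the ligands, had 8.96, 8.32 and 8.98 FPKM with overexpression, against 2.31, 2.51 and 2.17 FPKM in controls. It rose 4.01-fold (edgeR adjusted p = 1.62e-22). Dll3 and Dlk1 had 2 and 0 counted reads over all 6 libraries and were not tested. Summed over Jag1, Jag2 and Dll1 the level was 20.4 ± 0.523 FPKM with overexpression and 11.2 ± 0.48 FPKM in controls (SD, n = 3 each), and the share of Jag2 in it was 23.2 ± 0.811% and 38.4 ± 2.08%.

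Lfng encodes Lunatic fringe, a Golgi enzyme that lengthens the O-fucose sugars of Notch and so favours Delta over Jagged ligands. Lfng (ENSMUSG00000029570, chromosome 5, 140607320 to 140615545) had 2.96, 3.75 and 3.90 FPKM in the overexpression libraries, against 9.65, 10.1 and 9.75 FPKM in the control libraries. The groups were far apart, and the first overexpression library was the lowest of all 6. Lfng had a log2 fold change of -1.37 ± 0.10 (SE, n = 3 against 3, edgeR adjusted p = 1.2e-18), a 2.59-fold fall. Lfng is short at 2505 bases, and with the length trend removed its log2 fold change was -0.97, smaller in size and still called. Of the 5 other genes of Notch glycosylation, 3 rose and 1 fell. Pofut1, which adds the O-fucose, rose by 0.50 on the log2 scale, Poglut1, which adds O-glucose, by 0.30 and Eogt, which adds O-GlcNAc, by 0.45. Rfng, the Radical fringe enzyme, fell by 0.86. Mfng, the Manic fringe gene, had 7 to 10 counted reads per overexpression library and 3 to 15 per control library and did not pass the test (edgeR adjusted p = 0.596).

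The promoter of Lfng is shown because the gene is a known target of the pathway in the embryo. The letters TGGGAA, the core to which RBPJ binds, were searched on both strands from 250 bases before to 50 bases after each start in the RefSeq promoters (GRCm38.p6). They occurred in 25.6% of 32851 promoters. Of the 8 Notch genes with an entry, Lfng and Rbpj had the motif and Notch1, Notch2, Notch3, Jag1, Jag2 and Dll1 did not. Hes1 and Hey1 were not analysed here. The 2 matches of Lfng, with the motif or its reverse complement in capitals, lie on the plus strand of chromosome 5 at 140607194 to 140607223 and 140607221 to 140607250.
Lfng first match: ccagctgggtggTTCCCAgccccttgtccg
Lfng second match: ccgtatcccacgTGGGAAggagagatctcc
A match is only a run of letters, and binding was not measured here.

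Rbpj (ENSMUSG00000039191, chromosome 5, 53466152 to 53657362), the factor through which all Notch receptors act on DNA, was among the higher pathway transcripts. It had 15.0, 15.4 and 15.5 FPKM with overexpression, against 13.0, 12.2 and 13.2 FPKM in controls. The groups did not overlap but lay close. On the log2 scale the change was 0.35 ± 0.03 (SE, n = 3 against 3, edgeR adjusted p = 6.32e-15). Its direction depended on the length correction: with the length trend removed the log2 fold change was -0.16 and called lower (edgeR adjusted p = 8.5e-06).

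The partners of RBPJ on DNA went both ways. Of 6 coactivator genes tested, 3 rose and 1 fell. Ep300, the p300 acetyltransferase, had 6.85, 6.73 and 6.77 FPKM with overexpression, against 3.15, 2.69 and 2.83 FPKM in controls, a log2 fold change of 1.32 ± 0.05 (edgeR adjusted p = 5.72e-32). Of 7 corepressor genes, 5 rose and 2 fell. Spen, a corepressor that binds RBPJ, rose 2.47-fold (log2 fold change 1.30 ± 0.04, edgeR adjusted p = 2.98e-36). Cir1, a smaller corepressor, fell 2.53-fold, with 2.74 to 3.01 FPKM in overexpression libraries and 7.16 to 8.46 FPKM in control libraries.

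The target genes showed no single direction. Hes1 (ENSMUSG00000022528, chromosome 16, 30064384 to 30067796), the repressor most used as a readout of Notch signalling, had 17.8, 20.1 and 19.7 FPKM in the overexpression libraries, against 29.1, 31.6 and 31.5 FPKM in the control libraries. It was lower in every overexpression library. The log2 fold change was -0.59 ± 0.06 (SE, n = 3 against 3, edgeR adjusted p = 1.08e-13), a 1.5-fold fall. Hes1 is the shortest of the 10 genes at 2037 bases, and in its length decile 58.9% of genes were lower. With the length trend removed its log2 fold change was -0.078 and not called (edgeR adjusted p = 0.209).

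Hey1 (ENSMUSG00000040289, chromosome 3, 8663359 to 8667256), a related repressor, had 13, 7 and 4 counted reads with overexpression, against 17, 19 and 12 in controls. The groups overlapped at the first overexpression library. Its log2 fold change of -0.92 ± 0.46 did not pass the test (SE, n = 3 against 3, edgeR adjusted p = 0.0569). It was called lower with upper quartile scaling (-1.15, edgeR adjusted p = 0.0176), without overexpression replicate 1 (-1.5, edgeR adjusted p = 0.0139) and without control replicate 3 (-1.09, 0.0401). Without overexpression replicate 3 the value was -0.56 (adjusted p = 0.3).

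Of 14 other genes listed as targets or as Hes and Hey relatives, 9 were tested, 3 of which rose and 5 fell. Hes7 was among those that fell, and it passed the filter on low counts only through the control group. Hes6, a Hes relative known to hold back HES1 activity, is not read here as a measure of Notch signalling. Hes6 had 4.17, 4.45 and 3.92 FPKM with overexpression, against 25.8, 25.3 and 26.3 FPKM in controls. It fell 5.78-fold (log2 fold change -2.53 ± 0.09, edgeR adjusted p = 6.88e-35). Hes6 is short at 1808 bases, and with the length trend removed its log2 fold change was -1.98, still called. Hes7, the segmentation clock gene, had 0, 3 and 0 counted reads with overexpression and 18, 16 and 12 in controls. The controls were 14.7 times higher in CPM, with an exact 95% interval of 4.72 to 73.8. All 3 overexpression reads came from replicate 2. Ccnd1, which encodes cyclin D1, rose 3.73-fold to 275, 278 and 277 FPKM with overexpression, against 79.8, 76.4 and 81.2 FPKM in controls. Nrarp, a feedback inhibitor of Notch whose transcription follows the pathway in many tissues, had 2.68, 2.87 and 3.48 FPKM with overexpression and 1.43, 2.21 and 1.5 FPKM in controls, a log2 fold change of 0.91 ± 0.17 (edgeR adjusted p = 2e-06). It was named after its value was seen, for standing opposite to Hes1, as was Hey2. Hey2 had 6, 14 and 9 counted reads with overexpression and 0 in all 3 control libraries. It was too low to test, and was at least 10.1-fold higher against a floor of 3 counts over the control group. Hes2, Hes5 and Heyl were at 0 in all 6 libraries.

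**Figure D3:**
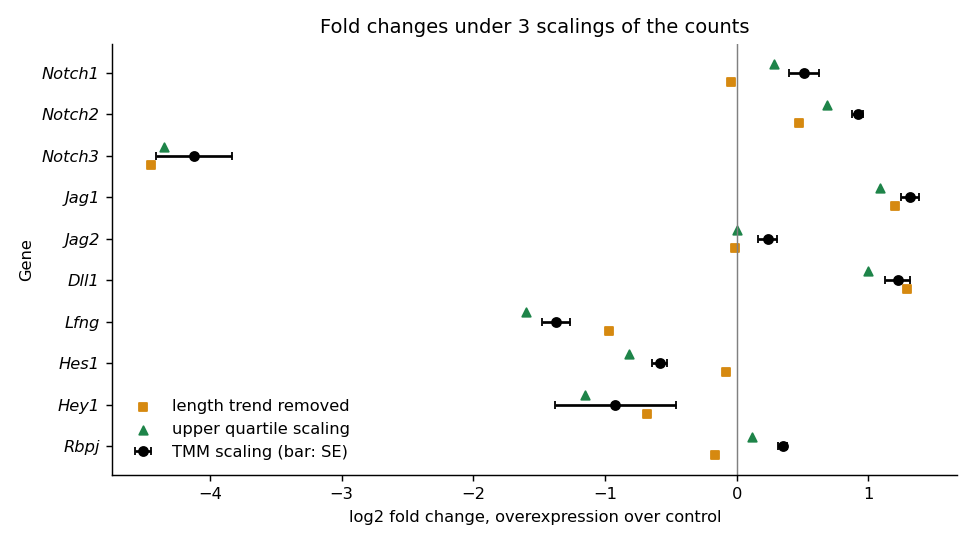
Log2 fold change of overexpression over control for each Notch gene. Black points are the edgeR values with TMM scaling and their standard errors, orange squares the values with the length trend removed and green triangles those with upper quartile scaling. Notch3, Lfng, Notch2, Jag1, Dll1, Hes1 and Hey1 stay on their side of 0 under all 3 scalings, Hes1 at -0.078 with the length trend removed. Notch1, Rbpj and Jag2 cross 0 with the length trend removed, Jag2 only to -0.014.

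Steps around the receptor changed in small and large amounts. Of 9 cleavage genes tested, 3 rose and 3 fell. The proteases Adam10 and Adam17 rose by 0.23 and 0.42 on the log2 scale. Among gamma-secretase subunits, Psenen, the smallest, fell 2.14-fold (16.6, 15.4 and 16.8 FPKM with overexpression, against 37.9, 37.0 and 36.3 FPKM in controls). Psenen is short at 1275 bases, and its log2 fold change of -1.10 was -0.44 with the length trend removed, still called. Aph1a fell by 0.52 and Ncstn fell by 0.20 on the log2 scale. Aph1b and Aph1c are close paralogs, and how their reads were shared is not stated by the labels or headers.

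All 4 ligases that ubiquitinate Notch ligands for endocytosis passed the test, as did 86.0% of all tested genes, so the count alone says little about them. Mib1 rose 2.10-fold, to 14.4 ± 0.343 FPKM with overexpression, against 7.33 ± 0.332 FPKM in controls (SD, n = 3 each). Its relative Mib2 fell 4.66-fold, with 2.32, 1.84 and 1.98 FPKM with overexpression, against 9.62, 9.77 and 11.01 FPKM in controls. Neurl1b rose 3.20-fold and Neurl1a fell by 0.65 on the log2 scale. Mib1 was the more abundant of the Mib pair with overexpression and Mib2 in controls.

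Among 8 tested genes of receptor turnover, 2 rose and 4 fell. The Deltex genes that passed the test all fell. Dtx3 had 15.5, 16.1 and 15.9 FPKM with overexpression, against 72.1, 75.2 and 73.6 FPKM in controls (log2 fold change -2.12 ± 0.04, edgeR adjusted p = 2.55e-47), and Dtx4 fell 2.11-fold and Dtx2 by 0.45 on the log2 scale. Itch, a ligase that acts on Notch, rose 2.01-fold, with 11.84 to 12.01 FPKM in overexpression libraries and 6.05 to 6.49 FPKM in control libraries. Numbl, a Numb relative, fell 4-fold, while Numb itself did not pass the test (0.01, edgeR adjusted p = 0.886). Over all other pathway genes 22 of 51 tested rose and 19 fell, against 42.1% and 43.9% of all tested genes, with a median log2 fold change of -0.0088. Both shares are near those of the whole table. With the length trend removed 19 rose and 24 fell, and the log2 fold changes of 4 long genes were nearer to 0 though still called, at 0.77 for Ep300, 0.76 for Spen, 0.62 for Mib1 and 0.60 for Itch.

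**Figure D4:**
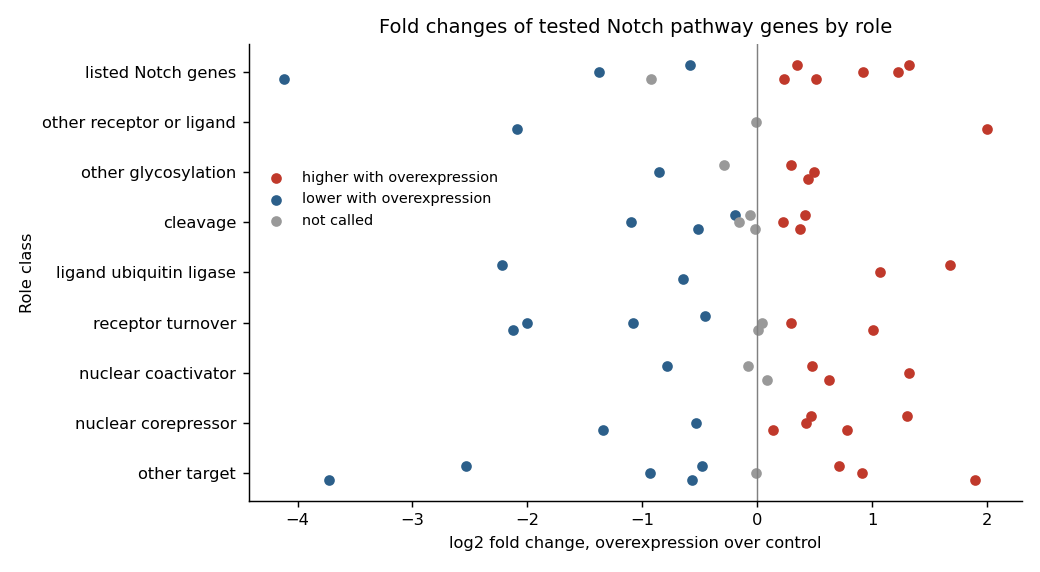
Log2 fold change of overexpression over control for every tested pathway gene, 1 point per gene, in rows by role. Red points passed the test higher, blue points passed it lower and grey points did not pass. Every row holds genes of both directions, and Notch3 at -4.12 and Hes7 at -3.72, both past the filter on low counts only through the controls, lie farthest from 0.

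Read against gene length, the 10 genes lay at different distances from the trend. Genes in the length decile that holds Notch1, Notch2 and Rbpj had a median log2 fold change of 0.57. The median was 0.24 in the decile of Jag2 and -0.46 in that of Hes1 and Lfng. Notch1, Rbpj, Jag2 and Hes1, at 0.51, 0.35, 0.23 and -0.59, lay 0.058, 0.22, 0.0032 and 0.12 from the median of their decile. Jag1 and Dll1, at 1.32 and 1.22, stood against deciles with medians of 0.08 and -0.04, and Notch3, at -4.12, against a decile with a median of 0.37. Notch2, Hey1 and Lfng lay 0.35, 0.72 and 0.91 from the median of their decile.

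**Figure D5:**
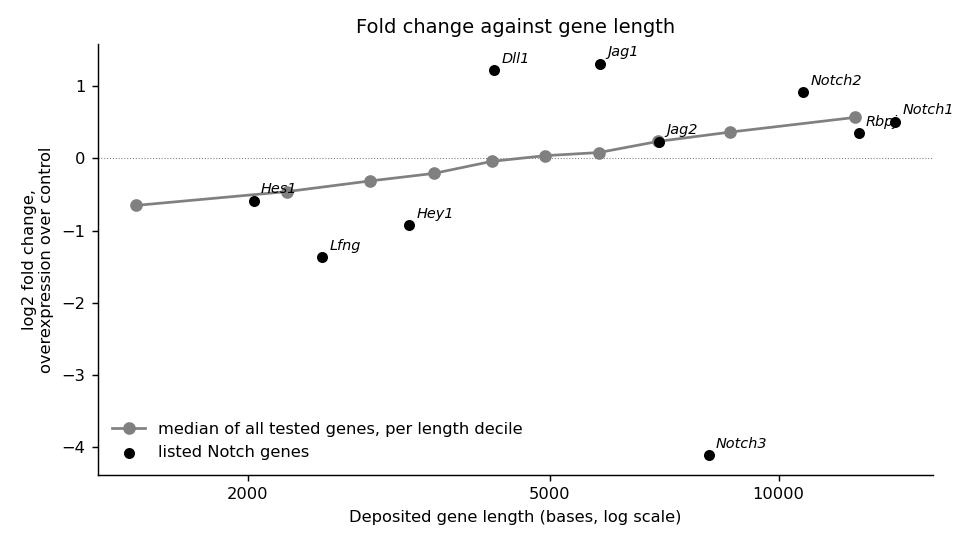
Log2 fold change of overexpression over control against deposited gene length in bases on a log scale. Grey points joined by a line are medians of all tested genes in deciles of length, and black points are the Notch genes. Jag2 and Hes1 lie at the line, Jag1 and Dll1 above it and Notch3 far below.

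The authors' deposited table of differential expression names its groups only A and B, and its B over A had the sign of overexpression over control in all 10159 genes called by edgeR. The authors' deposited table gave the same sign for all 10 Notch genes. For the 9 called by edgeR this is part of how B over A was read, so it is no separate support. The adjusted p in that table was under 0.05 for 9 of the 10, Hey1 being the exception at 0.158. The log2 fold changes in the authors' deposited table were within 0.04 of those from edgeR. Exons of Notch1, Notch3 and Dll1 overlap those of genes on the opposite strand and those of Notch2 a gene on its own strand. The overlap was 867 of 4219 exonic bases in Dll1 with A930024N18Rik and 488 of 8089 in Notch3 with Gm17276. In Notch2 it was 541 of 10782 with Gm42820. In Notch1, with 14232 exonic bases, it was 1068 with 0610009E02Rik and 414 with Gm13568. The labels and headers do not state a strand setting, so reads of the overlapping genes cannot be told apart from those of the Notch genes. Those partners were not analysed here, nor were the pseudogenes of Rbpj, with which it may share reads.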

How the data were processed

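Polyadenylated RNA of 6 PAM212 libraries, 3 per group, was analysed from the authors' deposited gene table. Its read counts are raw whole numbers per gene, per the file headers. Its FPKM values, per the file headers, matched count per deposited gene length and column total to within 0.001% for all 82387 nonzero values. Per the submitters' processing notes the tools were HISAT2, HTSeq and DESeq and the build mm9, with no versions or parameters. All 10 Notch genes, and 21604 of 21936 listed genes, have the coordinates of GENCODE mouse release 21 (GRCm38), which are used here. Read pairing and strand setting are not stated in the labels or headers.

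Counts were tested in edgeR 4.0.16 (R 4.3.3) with filterByExpr (minimum count 10), TMM scaling and the robust quasi-likelihood F test over 11809 genes, with Benjamini-Hochberg adjustment and a threshold of 0.05. The calls were checked on simulated counts in which only a small part of the genes changed. Most genes differed in the real counts, so that check does not bear on the scaling or the calls here. Standard errors are the log2 fold change divided by the square root of F. CPM is scaled with TMM, and 3 counts in a library equal 0.19 to 0.216 CPM. Floors and intervals reflect only counting error. The authors' deposited table of differential expression holds log2 fold changes of a group B over a group A and adjusted p-values. Alternatives were DESeq2 1.42.0, limma 3.58.1 on log2(FPKM + 1, 0.1 or 5), upper quartile scaling, no filter, a 1.5-fold minimum, a lowess length trend (span 0.3) removed, a replicate block and each replicate left out. The members, lists and tests were chosen with earlier results of these data known. Of the other pathway genes, up to 3 per role with the smallest p and at least 2-fold change were named by rule, or all where a role had 3 or fewer tested genes. Other pathway genes were named after their values were seen. A cleavage gene is counted but not reported here by name.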

Additional observations from a re-analysis of the deposited data

How the results depend on the processing

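Over 16 alternatives, 5 of the 10 Notch genes kept their direction and their side of the threshold throughout (Notch2, Notch3, Jag1, Dll1 and Lfng). Of 160 comparisons of a Notch gene under an alternative, 139 kept both, 10 lost the call with the same sign, 5 gained it and 6 changed sign, 4 of which also lost the call. Against a 1.5-fold minimum change, 3 Notch genes were higher, and 10 other pathway genes were higher and 12 lower. Removal of the length trend also left 3 Notch genes higher. It gave log2 fold changes of -0.040 for Notch1, -0.014 for Jag2, -0.16 for Rbpj and 0.12 for Dll4, and the fit of replicate block and length trend together gave 3 Notch genes higher and -0.042, -0.014, -0.16 and 0.12 for the same genes. Upper quartile scaling gave 29 other pathway genes lower and shifted the median over all genes to -0.26 on the log2 scale, against -0.03 with TMM. Dll4, near 0, turned to 0.0064 without the filter and ranged from -0.046 to 0.036 with a replicate left out, being positive without overexpression replicate 3 or control replicate 1. The cause was not tested, beyond what each setting removes. The replicate block alone gave 6 Notch genes higher and 3 lower, and 22 and 19 other pathway genes, and changed no call named here. Same-numbered libraries did not deviate together (correlations -0.0048, -0.0031 and -0.031). That gives no sign of pairing by number, but it cannot exclude a shared culture or day, which the labels do not state. With each replicate left out in turn, 6 Notch genes were higher and 3 to 4 lower, the fourth being Hey1, and 22 other pathway genes were higher and 19 to 21 lower. The log2 fold change of Hes7, -3.72, was -6.92 without overexpression replicate 2, which held all its reads there; that value depends on the prior count and is no bound. Limma on log2(FPKM + 1), (FPKM + 0.1) and (FPKM + 5) ended the call of Jag2 (adjusted p = 0.0841, 0.088 and 0.0787), and with a pseudocount of 1 or 0.1 it called Hey1 lower (0.0396 and 0.0356). Depth limits Notch3, Notch4, Hey1, Hey2 and Hes7, each with at most 29 counts over the overexpression libraries.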
